A study of Homo sapiens with 12 samples.

Results

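OE19 cells were screened with a pooled CRISPR knockout library and grown for 14 days in 1 µM lapatinib or in vehicle, and 2 lapatinib libraries were compared here with 2 vehicle libraries, 4 of the 12 samples of the series. OE19 is an established line of gastro-oesophageal adenocarcinoma with an amplified ERBB2 gene, which encodes HER2. Lapatinib inhibits the kinases HER2 and EGFR. The cells had been infected with the GeCKO v2 lentiviral library at a multiplicity of infection of 0.3 and selected for 7 days with 1.5 µg/mL puromycin, and all groups therefore carry Cas9, an sgRNA and the resistance gene. The vehicle was DMSO. A library taken after puromycin and before treatment, with 2 replicates, served as the baseline. The replicates were 2 separate infections of the same line, so their spread is that of infection, culture and sequencing in a single line.

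In such a screen each sgRNA directs Cas9 to cut a gene, and the sgRNA, integrated in the genome, is counted as a tag of the cells that carry it. An sgRNA that gains share under the drug marks cells that outgrew the others after losing the gene, and one that loses share marks the opposite. HER2 signals through Ras and MAP kinase, through PI3K and AKT and through kinases of the SRC family, and its inhibition in HER2-dependent cells is known to release proteins of the BCL-2 family that kill through the mitochondria. The library holds up to 6 sgRNAs per gene, split over sublibraries A and B, 4 per microRNA gene in A alone, and control guides with no target in the genome.

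The 4 libraries held 13105805 to 28801106 reads. The median sgRNA had 197 and 127 reads with vehicle and 57 and 94 with lapatinib, and 900 and 209 sgRNAs had no read with lapatinib against 160 and 78 with vehicle. The 100 most abundant sgRNAs took 0.448% and 0.438% of the reads with vehicle and 16.04% and 7.65% with lapatinib. Lapatinib replicate 1 was thus the shallowest library for the bulk of the sgRNAs and the one most taken over by few. Log2 normalized counts correlated across sgRNAs at r = 0.912 between the vehicle and 0.885 between the lapatinib replicates. Counts below are reads divided by each library's size factor, and changes are log2 ratios of lapatinib to vehicle, so that 1 is a 2-fold gain. All shares are relative to the other sgRNAs of a library.

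CSK stood far above every other gene. CSK encodes the C-terminal SRC kinase, which phosphorylates SRC family kinases at their tail and holds them inactive. Its 6 sgRNAs had a median of 132 and 150 normalized counts in the vehicle libraries, 156 and 160 at baseline, and 341992 and 143896 with lapatinib. The lapatinib libraries lay far above all others, and replicate 1 lay above replicate 2. CSK sgRNAs made up 0.0054% and 0.00601% of the reads in the vehicle libraries, against 7.21% and 4.01% under lapatinib. The median log2 change was 10.80 ± 0.63 (SD over 6 sgRNAs), with the sgRNAs between 9.79 and 11.34, and the medians of sublibraries A and B were 10.96 and 10.65. CSK lies on chromosome 15 (GRCh37, 75074421 to 75095538). Its enrichment had an adjusted p of 9.94e-16, the lowest that 6 sgRNAs above every control guide can give. The call was lost (adjusted p = 1) when edgeR's prior on the quasi-dispersion was allowed to follow abundance, and it held in the other 14 alternatives.

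Of 20890 genes tested, 110 (0.527%) were enriched with lapatinib when their sgRNAs were ranked among the control guides, and 27 (0.129%) were depleted. The median gene changed by -0.02. The control guides had a median of -0.14 against -0.02 for gene-targeting sgRNAs, so this ranking takes as its zero a set that lay lower than the genes. When the ranks were taken among all sgRNAs in place of the controls, 22 genes (0.105%) remained enriched, all of them among the 110. No gene was then depleted, although 1133 had an unadjusted p under 0.05 in that fit by edgeR, and ranks from DESeq2 also gave 0. The count of enriched genes fell to 13 without lapatinib replicate 2 and to 39 without vehicle replicate 1, and rose to 218 without lapatinib replicate 1 and to 225 without vehicle replicate 2. With 2 against 2 libraries an exact permutation test of a single value cannot go below p = 0.333, so the calls rest on the variance shared across sgRNAs.

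The 110 were called from these same libraries and sgRNAs, so the signs of their medians are no separate check. Of the 110, 109 had a median above 0 in both replicates. A median above 0 in both sublibraries was found in 104 of the 110, against 4920 of the 20890 genes tested. The 20890 include microRNA genes, which have sgRNAs in sublibrary A alone and cannot meet this condition. The changes of the 110 were uneven in size. The median log2 change was above 2 in 8, from 1 to 2 in 41 and below 1 in 61. In 33 of the 110 no sgRNA was higher at the level of single sgRNAs, and in 26 there were 3 or more. At the level of sgRNAs, 2604 of 121969 (2.13%) were higher with lapatinib and 83 (0.0681%) were lower. Of the control entries, 38 of 1994 (1.91%) were higher and 0 lower, at the same adjusted threshold in edgeR. The number of higher sgRNAs was 5223 and 10130 without lapatinib replicate 1 and 2, and 0 and 1 without vehicle replicate 1 and 2. Most of the higher sgRNAs stood alone. Of 2358 genes with any sgRNA higher, 2197 had 1, and 29 had 3 or more.

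**Figure D1:**
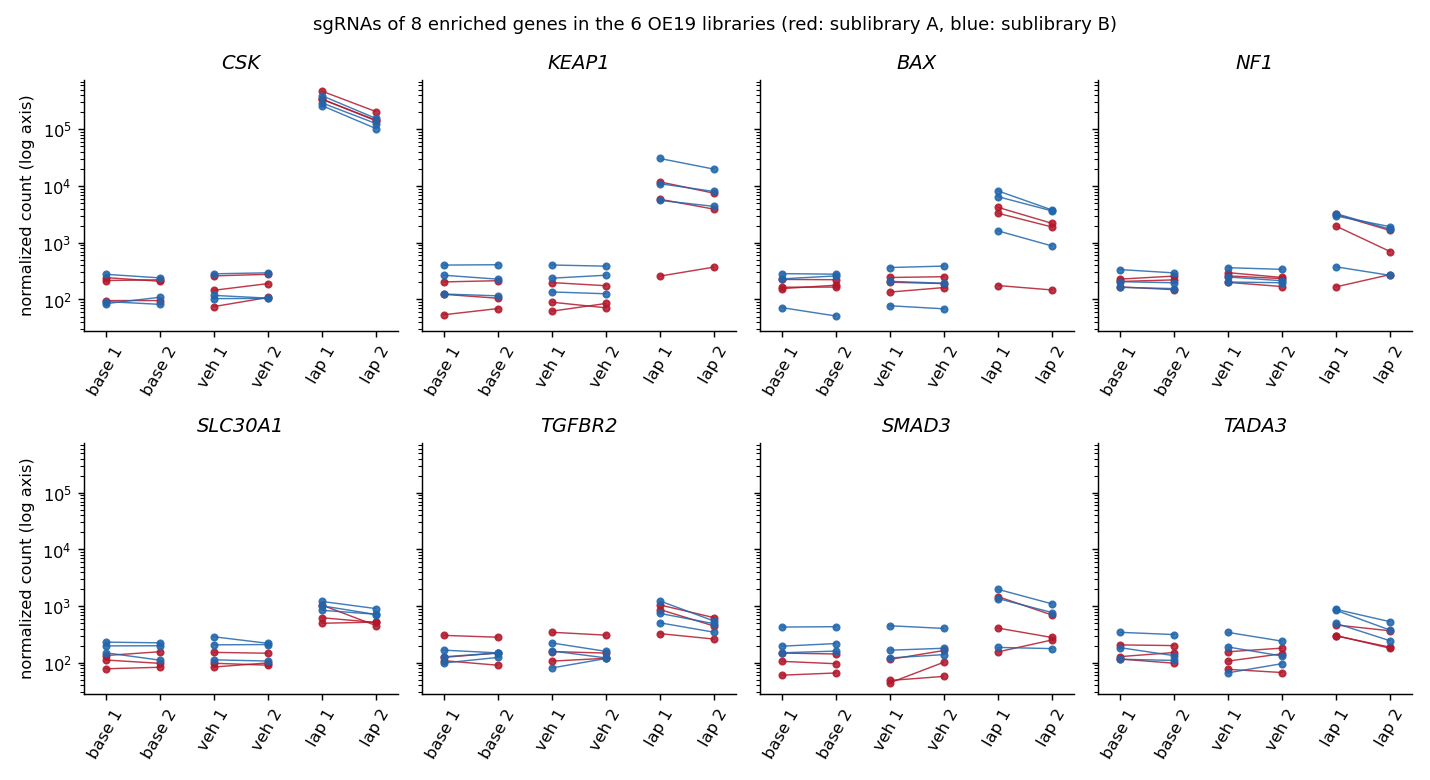
Normalized counts (log axis) of each sgRNA of 8 enriched genes in the 2 baseline (base), 2 vehicle (veh) and 2 lapatinib (lap) libraries of OE19, with lines joining the replicates of a group and colours for the sublibraries. All 6 CSK and all 6 SLC30A1 sgRNAs rise in both lapatinib libraries, while BAX and TGFBR2 have 1 sgRNA and NF1 has 2 that stay at the vehicle level.

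KEAP1 came next. KEAP1 is the substrate adaptor of the CUL3 ubiquitin ligase that marks the transcription factor Nrf2 for degradation. Its sgRNAs had a median of 167 and 151 normalized counts with vehicle and 8450 and 5944 with lapatinib. All 6 were higher, with a median log2 change of 5.78 ± 1.58 (SD over 6 sgRNAs). The weakest changed by 2.10, from 62.2 and 85.1 counts with vehicle to 259 and 373 with lapatinib. None of the other 12 genes of the KEAP1 and Nrf2 list was called. The change was 0.48 for CUL3, which builds the same ligase, and -0.42 for NFE2L2, which encodes Nrf2 (adjusted p for enrichment = 0.209 and 1).

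Genes of mitochondrial apoptosis were among the calls. BAX, which forms pores in the outer mitochondrial membrane, had 205 and 192 normalized counts with vehicle and 3772 and 2054 with lapatinib. Of its 6 sgRNAs 5 were higher, at a median of 3.90 ± 1.85 (SD over 6 sgRNAs), and the remaining one changed by -0.31. BMF, a BH3-only protein that binds BCL-2 family protectors, rose by 1.55 ± 0.99 (SD, 6 sgRNAs, 3 of them higher, adjusted p = 0.00568), from 219 and 241 counts to 508 and 328. Without lapatinib replicate 2 its adjusted p was 0.101. BCL2L11, which encodes the BH3-only protein BIM, had 3 of 6 sgRNAs higher and a median of 0.92, and missed the threshold (adjusted p = 0.0707). BAK1, the other pore former, had a median of 0.14. DYNLL1, a dynein light chain that binds BIM and other partners, rose by 1.16 ± 0.49 (SD over 5 sgRNAs, adjusted p = 0.000595), with every sgRNA at 0.95 or above. Of these sgRNAs 1 was higher on its own. The call of DYNLL1 was lost without lapatinib replicate 2, and with ranks among all sgRNAs its adjusted p was 0.0612.

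Of the 6 protectors in the BCL-2 family list, 1 was depleted, beside 0.129% of all genes tested. BCL2L1, which encodes BCL-XL, had 130 and 126 normalized counts with vehicle and 47.9 and 43.6 with lapatinib. Its median log2 change was -0.92 ± 1.26 (SD over 6 sgRNAs) with an adjusted p for depletion of 0.0189, and the sublibraries stood at -0.20 and -1.45. The call was lost without lapatinib replicate 1, lapatinib replicate 2 or vehicle replicate 2 (adjusted p = 0.0682, 0.205 and 0.287) and with ranks among all sgRNAs (adjusted p = 0.225). The sgRNA of largest loss went from 99.1 and 73.3 counts to 11.1 and 5.36, and it alone of the 6 was lower at the level of single sgRNAs. MCL1 and BCL2, which also protect, stood at -0.39 and 0.15 and were not called. The median of the protectors was 0.05 in replicate 1 and -0.34 in replicate 2, and -0.30 in the fit over both. The list of killers, chosen with earlier results of these data known, had 2 of 11 genes enriched, beside 0.527% of all genes. Its median was 0.33, at 0.43 and 0.41 in the replicates, beside -0.02 for all genes. No gene of the apoptosome and caspase list was called among 14, HTRA2 coming nearest at a median of 0.97 (adjusted p = 0.0743).

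Lists of brakes on growth signalling downstream of receptors were set beside the 0.527% of all genes that were enriched. NF1, a GTPase-activating protein that turns Ras off, had 255 and 224 normalized counts with vehicle and 2477 and 1176 with lapatinib, and a median log2 change of 2.97 ± 1.77 (SD over 6 sgRNAs). Of its sgRNAs 4 were higher, between 2.82 and 3.62, and 2 were at -0.16. NF1 was the enriched gene among 16 (6.25%) in the list of Ras and MAPK brakes, whose median was 0.03. None of the 14 genes of the PI3K and mTOR brakes list was called, and at 0.527% a list this short mostly holds no call. STK11, a kinase upstream of AMPK, stood at 0.57 (adjusted p = 0.11). Among the forward genes of PI3K and mTOR signalling the regulatory subunits PIK3R1 and PIK3R2 stood at 0.79 each (adjusted p = 0.11 and 0.118).

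SRC, the kinase that CSK restrains, was among the 27 depleted genes and was singled out after its values were seen. Its sgRNAs changed by a median of -1.10 ± 0.79 (SD over 6 sgRNAs, adjusted p = 0.0307), with 5 of 6 below 0 and the sublibraries at -0.64 and -1.63. The 3 sgRNAs of sublibrary B fell to between 6.69 and 56.3 normalized counts with lapatinib from between 25.4 and 134 with vehicle. No other SRC family kinase was called, and YES1 and FYN stood at -0.20 and 0.07. The adjusted p of SRC ranged from 0.0107 to 0.479 over the alternatives, past the threshold in 6 of 15 and in none that left out a library. With the replicate number as a block it was 0.0978. Among the HER2 family, ERBB2 itself stood at 0.95 ± 0.79 (SD over 6 sgRNAs, adjusted p = 0.209) having stood at -0.96 from baseline to vehicle, and EGFR at 0.23, and none of the 4 receptors was called.

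**Figure D2:**
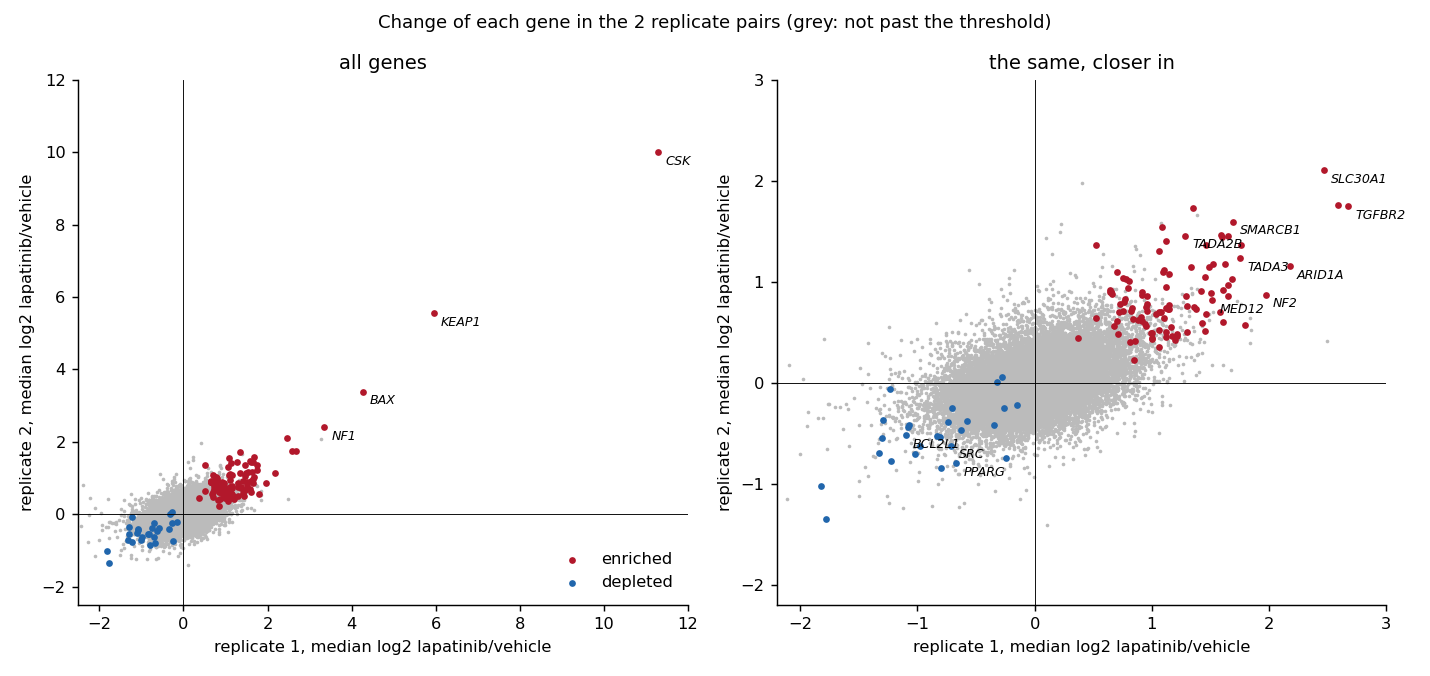
Median log2 change of each gene's sgRNAs from vehicle to lapatinib in replicate 1 (horizontal axis) and replicate 2 (vertical axis), over all genes on the left and on narrower axes on the right, with enriched genes in red, depleted genes in blue and the rest in grey. CSK lies at 11.28 and 10.00, KEAP1 at 5.96 and 5.55, and the blue points lie within the grey cloud or at its edge.

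SLC30A1 was next by rank. It encodes a transporter that moves zinc out of the cell. All 6 of its sgRNAs were higher, from 133 and 128 normalized counts with vehicle to 930 and 617 with lapatinib, at a median log2 change of 2.30 ± 0.50 (SD over 6 sgRNAs, adjusted p = 2.25e-08). The spread between its sgRNAs was the narrowest among the 8 genes above 2. None of the other 9 zinc exporters was called.

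The TGF-beta pathway, in which a ligand joins type I and type II receptors that phosphorylate SMAD2 and SMAD3, gave 4 enriched genes of 18. Over all genes tested, 0.527% were enriched. This list and the others were chosen with earlier results of these data known, so their counts of calls are a description. TGFBR2, the type II receptor, went from 160 and 135 normalized counts to 808 and 468, a median log2 change of 2.25 ± 1.05 (SD over 6 sgRNAs, adjusted p = 3.25e-05). SMAD3 went from 118 and 153 counts to 886 and 489, at 2.24 ± 1.13 (SD, adjusted p = 0.000595). TGFBR1, the type I receptor, rose by 1.22 (adjusted p = 0.0101) and TGFBR3, a co-receptor, by 1.11 (adjusted p = 0.00484). TGFBR1 and TGFBR3 did not pass with ranks among all sgRNAs (adjusted p = 0.0501 and 0.19). SMAD2, the other receptor SMAD, stood at 0.08, and SMAD4, the partner of both, at 0.42 (adjusted p = 0.633 and 0.436). The ligand genes TGFB1, TGFB2 and TGFB3 lay between -0.08 and 0.02. The list median was 0.07.

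The Hippo pathway, a kinase cascade that keeps the co-activators YAP1 and WWTR1 out of the nucleus, also gave 4 enriched genes, of 19. Its list, too, was chosen with earlier results known, and 0.527% of all genes were enriched. LATS2, the kinase that phosphorylates YAP1, rose by 1.16 ± 0.84 (SD over 6 sgRNAs, adjusted p = 0.00084). NF2, the upstream scaffold, rose by 1.44 ± 1.62 (SD, adjusted p = 0.0241), with 3 of 6 sgRNAs higher and 1 at 3.78. The scaffolds SAV1 and WWC1 rose by 0.99 and 0.80 (adjusted p = 0.0395 and 0.0356). Of these, LATS2 alone passed with ranks among all sgRNAs, and it was lost without lapatinib replicate 2 (adjusted p = 0.0697). YAP1 and WWTR1 stood at -0.40 and -0.07, and the list median was 0.09.

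Subunits of several chromatin complexes were among the enriched genes. SAGA is a co-activator complex with a histone acetyltransferase module, a deubiquitinase module and a core of TAF and SUPT proteins. Of its 20 listed genes, chosen with earlier results known, 6 were enriched, against 0.527% of all genes. Its list median of 0.45 was the highest of the 31 lists, against -0.02 for all genes. TADA3 rose by 1.50 ± 0.47 (SD over 6 sgRNAs, adjusted p = 3.25e-05), from 132 and 138 normalized counts to 482 and 306, and no sgRNA of it was below 0.91. TADA1 rose by 1.60 ± 1.27 (SD, adjusted p = 0.00504), from 182 and 227 counts to 735 and 466. TADA2B, which holds TADA3 in the acetyltransferase module, rose by 1.52, TAF5L by 1.58, TAF6L by 1.14 and SUPT7L by 1.03 (adjusted p = 0.00904, 0.0101, 0.0313 and 0.0462). With ranks among all sgRNAs 4 of the 6 calls were left, TAF6L and SUPT7L being lost (adjusted p = 0.391 and 0.427). Without lapatinib replicate 2 TADA2B and TAF5L were lost (adjusted p = 0.356 and 0.0749), while TADA3 and TADA1 passed in every alternative. The members that were not called included USP22, the deubiquitinase, at 0.10, and the paralogous acetyltransferases KAT2A and KAT2B at 0.02 and -0.20.

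Against 0.527% of all genes, 3 of 26 were enriched in the SWI/SNF nucleosome remodeller, a list likewise chosen with earlier results known. They were SMARCB1 at 1.88 ± 0.72 (SD over 6 sgRNAs, adjusted p = 0.00922), ARID1A at 1.61 ± 0.75 (SD, adjusted p = 0.00148) and SMARCE1 at 1.29 (adjusted p = 0.0454). SMARCB1 was lost without lapatinib replicate 2 (adjusted p = 0.0955) and SMARCE1 with ranks among all sgRNAs (adjusted p = 0.142). The list median was 0.03, and the ATPase SMARCA4 stood at 0.48. EP300, an acetyltransferase, rose by 1.34 (adjusted p = 0.00386), with 1 sgRNA at 6.25 and the others between 0.53 and 2.21. Its paralogue CREBBP stood at 0.19. Mediator is the bridge between transcription factors and RNA polymerase II. Of its 33 genes MED12 and MED19 were enriched, at 1.16 and 1.25, against 0.527% of all genes. MED12 was lost without lapatinib replicate 2 (adjusted p = 0.0749) and MED19 with ranks among all sgRNAs (adjusted p = 0.243).

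**Figure D3:**
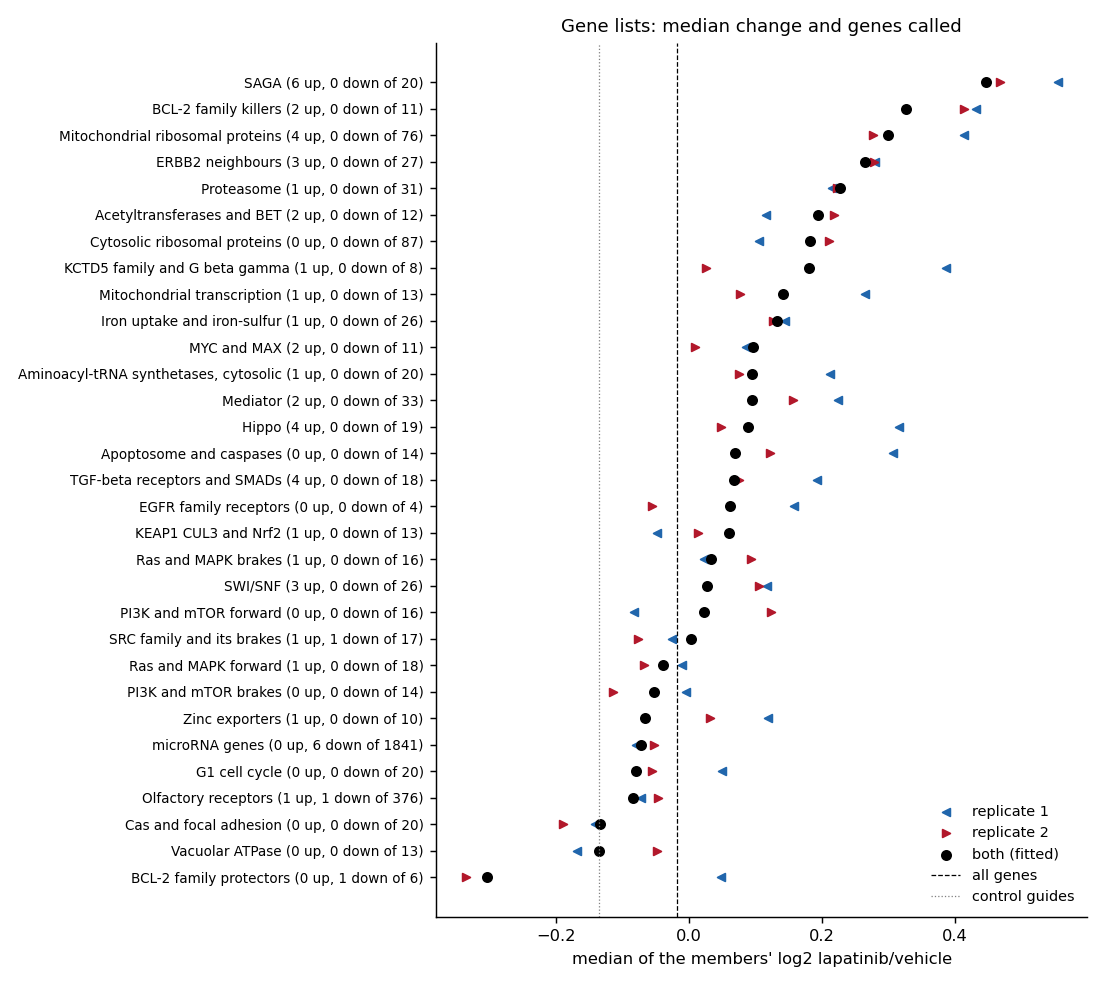
Median log2 change from vehicle to lapatinib over the members of each of 31 gene lists, in the fit over both replicates (black) and in each replicate (triangles), with the numbers of genes enriched (up) and depleted (down) of those tested. SAGA has the highest median, at 0.45, and the BCL-2 family protectors have the lowest, at -0.30, where replicate 1 alone lies at 0.05.

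Some of the enriched genes lay lower in vehicle than at baseline. Of the 110, 21 had a median at least 0.5 lower in vehicle than at baseline, as did 776 of all genes tested, and 34 ended within 0.5 of baseline with lapatinib. MYC, a transcription factor that drives growth, had 114 and 128 normalized counts at baseline, 57.8 and 44.5 in vehicle, and 137 and 132 in lapatinib. The enrichment of MYC over vehicle was 1.27 (adjusted p = 0.00231), while lapatinib stood at 0.21 over baseline. The call of MYC was lost without lapatinib replicate 2 (adjusted p = 0.804) and with ranks among all sgRNAs (adjusted p = 0.104). The same held for PPP2CA, the catalytic subunit of protein phosphatase 2A, at 1.21 over vehicle and 0.22 over baseline, and for MIEN1, a neighbour of ERBB2, at 1.52 and -0.23. Neither passed with ranks among all sgRNAs (adjusted p = 0.051 and 0.579). The mitochondrial ribosome list had 4 of 76 genes enriched, against 0.527% of all genes. Its median was 0.30 over vehicle and 0.01 over baseline, and stood at -0.35 from baseline to vehicle. The cytosolic ribosome list had no enriched gene of 87, with a median of 0.18 over vehicle and -0.26 over baseline. These values share the vehicle libraries with the calls and were not tested.

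The other enriched genes ended above baseline. With lapatinib, 76 of the 110 stood more than 0.5 over baseline. BAX stood at 4.01, NF1 at 3.15, SLC30A1 at 2.31, TGFBR2 at 2.24, SMAD3 at 2.04 and BMF at 1.62, and each of these 6 differed from baseline by at most 0.21 in vehicle. ARID1A and SMARCB1 differed from baseline by -0.80 and -0.60 in vehicle and stood at 0.85 and 1.08 over baseline with lapatinib.

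**Figure D4:**
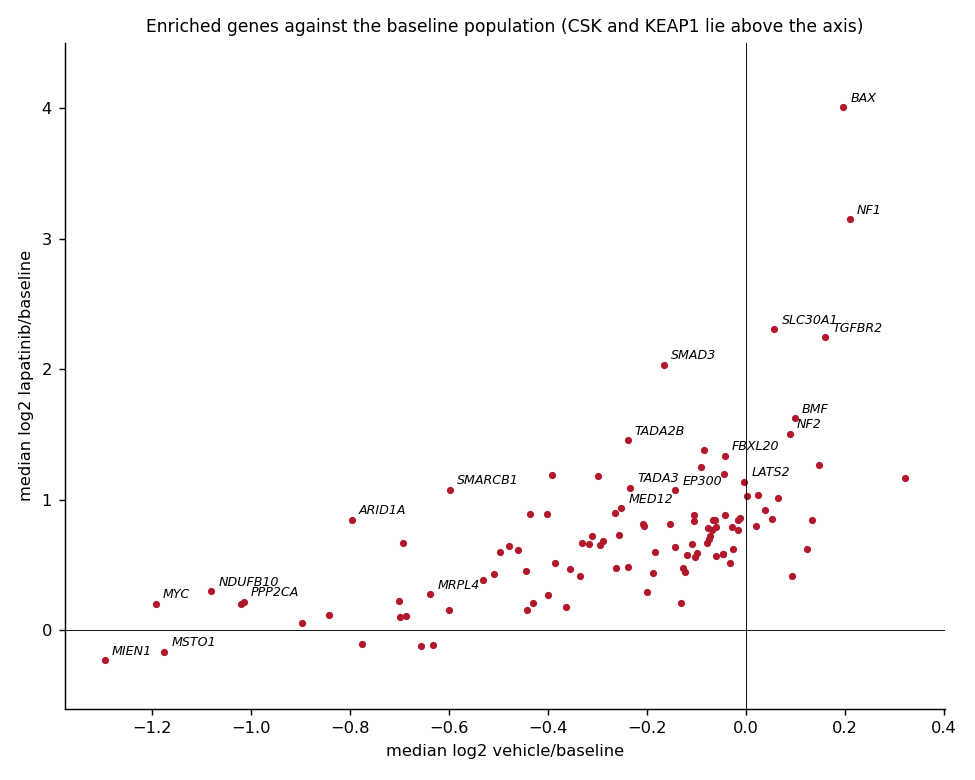
Median log2 change of the enriched genes from baseline to vehicle (horizontal axis) and from baseline to lapatinib (vertical axis). BAX, NF1 and SLC30A1 lie near 0 on the horizontal axis and high on the vertical axis, while MYC, MSTO1 and MIEN1 lie below -1 on the horizontal axis and near 0 on the vertical axis.

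The enriched genes were not spread evenly over the genome. Of the 107 that could be placed on GRCh37, 28 lay on chromosome 19 and 21 on chromosome 17, together 45.8% of them against 13.0% of the 20017 placed genes. Many of these had small changes and lay in stretches where nearly every gene had moved up. On chromosome 17 between 26 and 30 Mb, which runs from near the centromere to NF1 (29421945 to 29709134), the median over 71 genes was 0.52, 91.5% of them lay above 0, and 12 were enriched. Among them were OMG, which lies inside NF1, TEFM, ALDOC, SLC6A4, TNFAIP1 and TRAF4. The median there was 0.63 in replicate 1 and 0.40 in replicate 2. It was 0.16 in the next 4 Mb, 0.29 between 34 and 44 Mb, where ERBB2 and its neighbours lie, 0.02 beyond 44 Mb and -0.02 on the short arm.

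On chromosome 19 between 14 and 20 Mb, on the centromere side of KEAP1 (10596801 to 10614234), the median over 167 genes was 0.43, 93.4% of them lay above 0, and 12 were enriched, among them IFI30, MPV17L2, MAP1S and TM6SF2. On the long arm the 10 Mb before BAX (49458072 to 49465055) had a median of 0.20 over 290 genes with 5 enriched. Beyond BAX the median was -0.04 over 378 genes with 0 enriched. The step was present in both replicates, from 0.25 to -0.02 in replicate 1 and from 0.16 to -0.01 in replicate 2. Around CSK the 10 Mb on the centromere side had a median of 0.10 over 98 genes and the 10 Mb on the telomere side -0.03 over 99. The interquartile ranges of these last sets overlap, from -0.08 to 0.29 against -0.19 to 0.19.

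Not all leading genes had such a neighbourhood. On the centromere side of TGFBR2 and of SLC30A1 the medians over 10 Mb were -0.05 and -0.01, and for TADA3 and ARID1A they were 0.00 and 0.04. These stretches and windows were chosen after the values were seen, and neighbouring genes do not share sgRNAs, so the values are a description with no test. GC content moved with the change. The median was -0.11 in the fifth of genes with the lowest transcript GC and 0.07 in the fifth with the highest, and chromosome 19 between 14 and 20 Mb has a median GC of 59.95%. After the median of each gene's own GC class was subtracted, the stretches on chromosomes 17 and 19 stood at 0.58 and 0.39. The part of GC content in these values was not tested further. Growth in vehicle did not show the pattern, with medians of -0.02 and -0.02 from baseline to vehicle in the 2 stretches. Of the 110 enriched genes, 49 lay on chromosomes 17 and 19. With the genes of these chromosomes left out of the test 31 genes passed, so some calls elsewhere were lost as well.

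**Figure D5:**
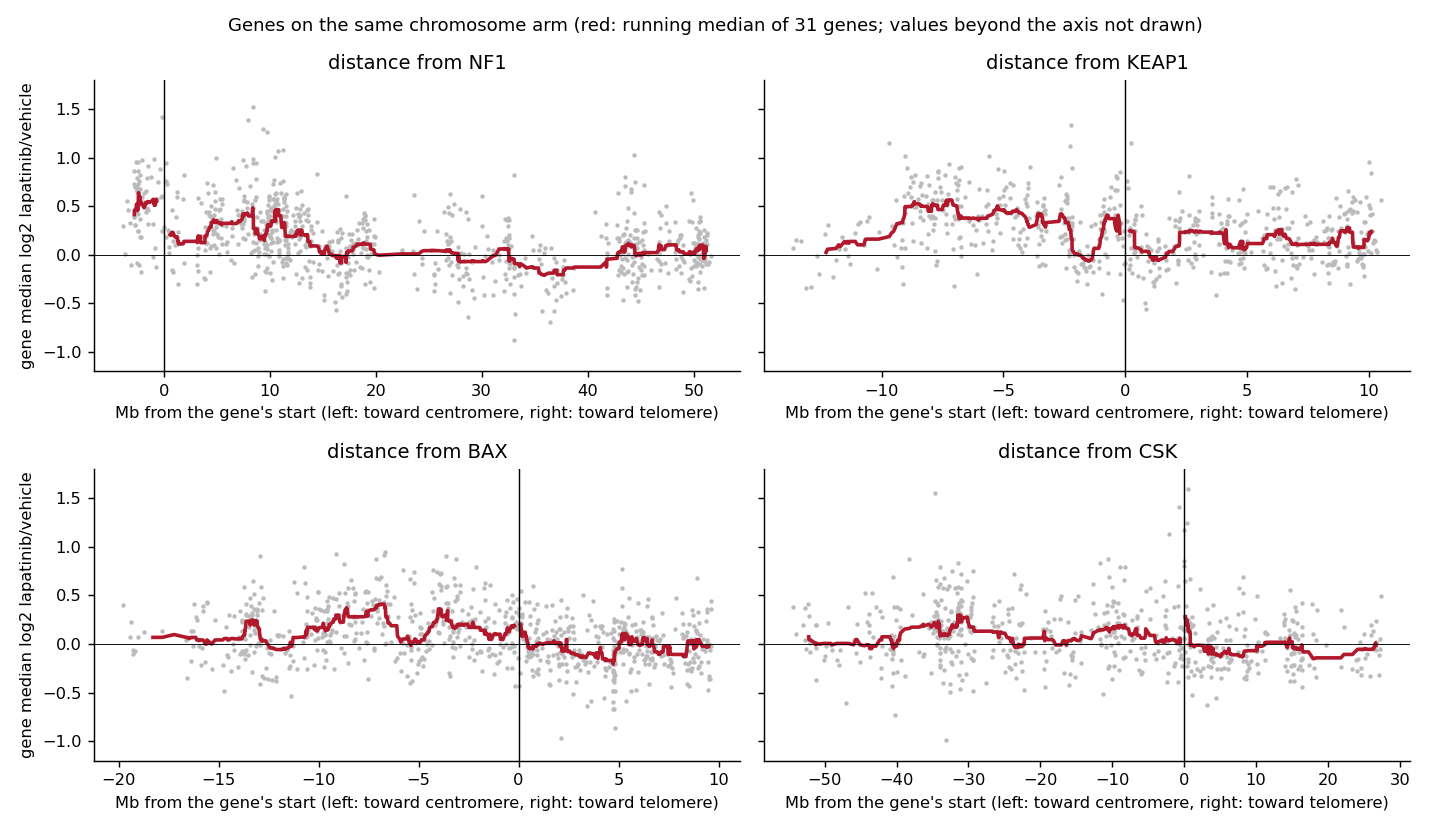
Median log2 change from vehicle to lapatinib of each gene (grey) on the chromosome arm of NF1, KEAP1, BAX or CSK, against its distance from that gene's start in Mb, negative toward the centromere, with a running median of 31 genes (red). The running median lies near 0.5 on the centromere side of NF1, falls below 0 within the first 5 Mb beyond BAX, and on the centromere side of KEAP1 dips to near 0 within the first 3 Mb before rising to about 0.5.

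Depletion was far weaker than enrichment. Of the 27 genes called, 6 had any sgRNA that was lower at the level of single sgRNAs. A median below 0 in both replicates, the libraries that gave the calls, was found in 25 of the 27. None of them was depleted with ranks among all sgRNAs, with total counts as the scale or when the entries of each control guide in sublibraries A and B were summed, and 11 of the 15 named depleted genes were called in no fit that left out a library. Without lapatinib replicate 1, lapatinib replicate 2, vehicle replicate 1 and vehicle replicate 2 the counts were 2, 0, 14 and 1. PPARG, a nuclear receptor, stood at -0.83 ± 1.02 (SD over 6 sgRNAs), and OTUD5, a deubiquitinase, at -1.08 ± 0.79. STYX and ATP8B4 were called with medians of -0.02 and -0.28.

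MicroRNA genes made up 6 of the 27, of 1841 tested, while 0.129% of all genes tested were depleted. hsa-mir-568 had 53.0 and 55.3 normalized counts with vehicle and 8.92 and 21.4 with lapatinib, a median log2 change of -1.77 ± 0.83 (SD over 4 sgRNAs). The others among the named genes were hsa-mir-5571 at -1.38, hsa-mir-5092 at -1.37, hsa-mir-384 at -1.05 and hsa-mir-580 at -0.87. The lapatinib counts of hsa-mir-568 were low. With ranks among all sgRNAs none of these 5 microRNA genes passed (adjusted p = 0.225 to 0.295). The mature sequences of these 5, from RefSeq on GRCh38.p14, are shown because knockout of such a gene removes them. The seed, bases 2 to 8, is in capitals, and no 2 of them share it in full. The seeds of hsa-miR-384 (UUCCUAG) and hsa-miR-5571-3p (UCCUAGG) overlap in a shifted position.

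hsa-miR-568: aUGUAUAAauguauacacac
hsa-miR-5571-5p: cAAUUCUCaaaggagccuccc
hsa-miR-5571-3p: gUCCUAGGaggcuccucug
hsa-miR-5092: aAUCCACGcugagcuuggcauc
hsa-miR-384: aUUCCUAGaaauuguucaua
hsa-miR-580-5p: uAAUGAUUcaucagacucagau
hsa-miR-580-3p: uUGAGAAUgaugaaucauuagg

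The list of microRNA genes had a median of -0.07, and that of 376 olfactory receptors, genes without known use in this tissue, had -0.09. Both medians lay between all genes and the control guides. Of the olfactory receptors 1 was enriched and 1 depleted, beside 0.527% and 0.129% of all genes tested.

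Large gains of a single sgRNA were frequent and did not mark the gene. Of all sgRNAs, 415 were over 20-fold higher with lapatinib and 0 were over 20-fold lower. Without lapatinib replicate 1 there were 171 and 4, and without lapatinib replicate 2 there were 594 and 194. An sgRNA of ISCU, a scaffold of iron-sulfur cluster assembly, went from 123 and 112 normalized counts to 101278 and 29574, and a second one rose from 27.9 and 28.4 to 1719 and 574. Its other 3 sgRNAs stood between -1.88 and 0.32, so ISCU was called (adjusted p = 0.00682) with a median of 0.32, which turned negative under 4 alternatives. The next largest gains, of single sgRNAs of TMC2, DEFA5, hsa-mir-6509, B3GNT9, GSDMD and C1orf146, were 424-fold, 398-fold, 387-fold, 349-fold, 340-fold and 338-fold, and the median changes of these genes were between -0.48 and 0.47. Control guides did so too. The 2 entries of one control guide rose 51.7-fold and 49.6-fold, with 11312 and 3136 counts and 10939 and 3513 counts in the lapatinib libraries. In each of these sgRNAs replicate 1 was the higher library.

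The genes of the study's own candidate list that are not described above were near the threshold or below it. KCTD5, a CUL3 adaptor, was enriched at 0.73 ± 1.77 (SD over 6 sgRNAs, adjusted p = 0.0462), with 2 of 6 sgRNAs higher, and passed in 6 of 15 alternatives. With the replicate number as a block it was lost (adjusted p = 0.222). PRR24 stood at 0.63 and was not called (adjusted p = 0.203). KEAP1, SLC30A1, BAX, TGFBR2, TADA3, SMAD3, NF1, ARID1A and TADA1 were the 9 named genes enriched in every alternative, and CSK joined them in every fit that left out a library.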

How the data were processed

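The measured quantity was the abundance of each sgRNA in genomic DNA. The authors trimmed the reads, mapped them to the sgRNA library and deposited raw read counts per sgRNA, with replicates kept apart. Their processing notes name Bowtie2 2.3.2, FastQC 0.11.5 and MAGeCK 0.5.6, and no genome build enters the counts. The table held 123411 sgRNA entries.

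Groups and replicate numbers were taken from the labels. The 4 libraries compared held 13105805 to 28801106 counts. The sgRNAs with at least 40 counts over these 4 libraries (121969) were tested with edgeR 4.0.16 (R 4.3.3) by the quasi-likelihood test, with TMM scaling and a prior on the quasi-dispersion without abundance trend, 2-sided, and Benjamini-Hochberg adjustment at 0.05. For genes with at least 2 tested sgRNAs (20890), each sgRNA was ranked among 1994 control entries, ranks up to 0.05 were combined by robust rank aggregation, 1-sided, and p-values were adjusted over all genes. Adjusted p-values of genes are from this test on edgeR statistics. The 2000 control entries are 1000 guides entered in both sublibraries, and the log2 counts of the 2 entries correlated at r = 0.961 to 0.974, so the control ranks hold fewer independent values than entries. Errors are SDs over sgRNAs of a gene, which are not replicates of the condition. Normalized counts were divided by median-of-ratios size factors, and a pseudocount of 1 was used for folds. The sgRNA and gene tests were also run on simulated counts with a single dispersion and the same fold for all sgRNAs of a changed gene. Such counts hold no large gains of a single sgRNA and no offset of the control guides. They therefore say nothing about these features of the data. Python 3.11.15, DESeq2 1.42.0 and limma 3.58.1 were also used.

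The genes and the gene lists were chosen with earlier results of these data known. Named were up to 40 enriched and 15 depleted genes of lowest p that moved the same way in both replicates, the genes the study names, the 3 members of lowest p of each list, and the 10 targeting and 5 control entries of largest fold. Genes described outside this rule were chosen after their values were seen. Some genes are not reported here and stay in every count. Gene positions are those of GRCh37, for 20017 genes, and 24 gene names in the table had turned into dates or numbers. The alternatives were other scalings, filters, priors, rank limits and nulls, DESeq2, a replicate block and leaving out each library. The control entries were summed, chromosomes 17 and 19 left out, GC content subtracted and DESeq2 joined to ranks among all sgRNAs only after the data had been seen.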

Additional observations from a re-analysis of the deposited data

How the results depend on the processing

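With 2 libraries a group and a median of 57 reads per sgRNA in lapatinib replicate 1, single sgRNAs and losses are the least certain values. Against 2604 sgRNAs higher, 83 lower, 110 genes enriched and 27 depleted, total counts as the scale gave 1590 sgRNAs higher, 223 lower and 0 genes depleted, and moved the median sgRNA from -0.02 to -0.46. A prior with abundance trend gave 65 genes enriched and 8 depleted, and DESeq2 gave 156 sgRNAs lower, 61 genes enriched and 8 depleted. Ranks among all sgRNAs gave 22 and 0, with either edgeR or DESeq2 statistics. A rank limit of 0.25 gave 449 enriched, and summing the entries of each control guide gave 0 depleted. The test without chromosomes 17 and 19, where 49 of the 110 lay, gave 31 enriched. Leaving out 1 library at a time gave 0 to 10130 sgRNAs higher, 0 to 4586 lower, 13 to 225 genes enriched and 0 to 14 depleted, with the lone library of a group assumed to vary like the other group. The 415 sgRNAs over 20-fold higher became 267 with total counts and 171 to 594 with a library left out. The 0 over 20-fold lower became 14 with a pseudocount of 0.5, 1 with total counts and 1 to 194 with a library left out. The median of ISCU turned to -0.17 with total counts, -0.23 without a filter, -0.27 without lapatinib replicate 1 and -0.13 without vehicle replicate 2, and ranged from -0.27 to 1.05 with a library left out. That of STYX turned to 0.10 with scaling on control guides and to 0.0573 without lapatinib replicate 1, and ranged from -0.16 to 0.0573 with a library left out. The causes were not tested.

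With the replicate number as a block, 2871 sgRNAs were higher, 80 lower, 92 genes enriched (86 of them among the 110) and 18 depleted, and the median of STYX was 0.0223. The differences between replicates correlated at r = 0.03 between the groups, and whether a number marks the same infection in both groups is not given in the sources used here. KCTD5 and SRC were lost under the block (adjusted p = 0.222 and 0.0978), as were hsa-mir-5092, C11orf96, KLHL8 and STYX (adjusted p = 0.0911 each). None of the other calls among the 39 enriched and 15 depleted genes named by lowest p was lost, and calls outside these were not followed.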
